A study of Mus musculus with 6 samples.

Results

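The secreted proteases that cut the extracellular matrix, their inhibitors and the enzymes that cross-link it were measured in subcutaneous white fat after deletion of Nampt in adipocytes. The set is every gene of the deposited count table whose symbol belongs to the matrix metalloproteinases (Mmp), the tissue inhibitors of metalloproteinases (Timp), the ADAMTS proteases (Adamts), the ADAMTS-like proteins (Adamtsl) or the lysyl oxidases (Lox, Loxl), leaving out Mmp12. It holds 55 of the 40428 features: 22 Mmp, 4 Timp, 19 Adamts, 5 Adamtsl and 5 lysyl oxidase genes. In 3 ANKO mice floxed Nampt alleles had been removed by Cre recombinase under the adiponectin promoter, and 3 control mice carried the floxed alleles (flox/flox). All 6 had the C57BL/6J strain background and were kept at room temperature on regular chow. The labels give neither the age or sex of the mice nor whether the controls carried the Cre transgene. Adiponectin-Cre acts in adipocytes, so the stromal, vascular and immune cells of the depot keep Nampt. Whole tissue was sequenced after ribosomal RNA depletion, and fewer cells of a type and less RNA per cell cannot be told apart in it.

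Total counts were 19748962 to 23860596 per library. Nampt had 48.6, 50.2 and 47.0 CPM (normalised read counts, scaled to a common library size by TMM) in ANKO 1, 2 and 3, against 83.6, 93.0 and 87.0 CPM in control 1, 2 and 3. All ANKO values lay below all control values (log2 fold change of ANKO over control -0.85, standard error 0.0776, adjusted p = 0.00416). Summed counts of 8 adipocyte markers made up 0.397% to 0.631% of the ANKO libraries and 0.652% to 1.06% of the control libraries, without overlap. The 10 macrophage markers took 0.0831% to 0.112% of ANKO and 0.0576% to 0.0678% of control libraries, also without overlap. The 6 mast cell markers took 0.0156% to 0.0201% of ANKO and 0.0064% to 0.0136% of control libraries. The 9 fibroblast and preadipocyte markers overlapped, at 0.306% to 0.4997% in ANKO and 0.269% to 0.340% in control tissue. Skeletal muscle RNA differed most between libraries, with 19 markers at 3.66%, 0.616% and 0.0306% in ANKO 1 to 3 and 1.23%, 0.364% and 1.86% in control 1 to 3.

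Matrix metalloproteinases are zinc proteases, made as inactive precursors, that cleave collagens, laminins and proteoglycans. TIMPs bind their active site and block it. ADAMTS proteases trim procollagens and cut large proteoglycans such as versican, ADAMTS-like proteins resemble them but have no protease domain and several bind fibrillin, and lysyl oxidases oxidise lysines so that collagen and elastin become cross-linked. In fat these enzymes remodel the collagen network that surrounds each adipocyte.

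Of the 55 genes 47 passed the filter on low counts and were tested, and 1 of them, Adamtsl5, rose in ANKO tissue, while none fell (edgeR quasi-likelihood test, Benjamini-Hochberg adjusted p under 0.05 over 19272 features). Over all features tested 1.59% were called, of which the higher ones made up 0.488% and the lower ones 1.10% of the features. At an unadjusted p under 0.05, 8 members were higher and 5 lower in ANKO tissue, against 6.03% and 6.90% of all features. All 3 ANKO libraries lay above all 3 control libraries for 10 members and below them for 3, against 9.19% and 10.2% of all features, or 19.4% together. The log2 fold change was positive for 33 of the 47, with a median of 0.12, while 50.1% of all features had a positive one and their median was 0.00068. Leaving out 1 library gave member medians of 0.11 to 0.20, the highest without ANKO 2, and 29 to 33 positive members, the fewest without ANKO 1. DESeq2, which was run without the low-count filter, called Mmp3 higher and Timp4 lower as well, and limma-voom called Adamtsl5 alone. The 8 members that did not pass the filter entered neither the edgeR nor the limma-voom counts, and DESeq2 gave none of them an adjusted p.

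**Figure D1:**
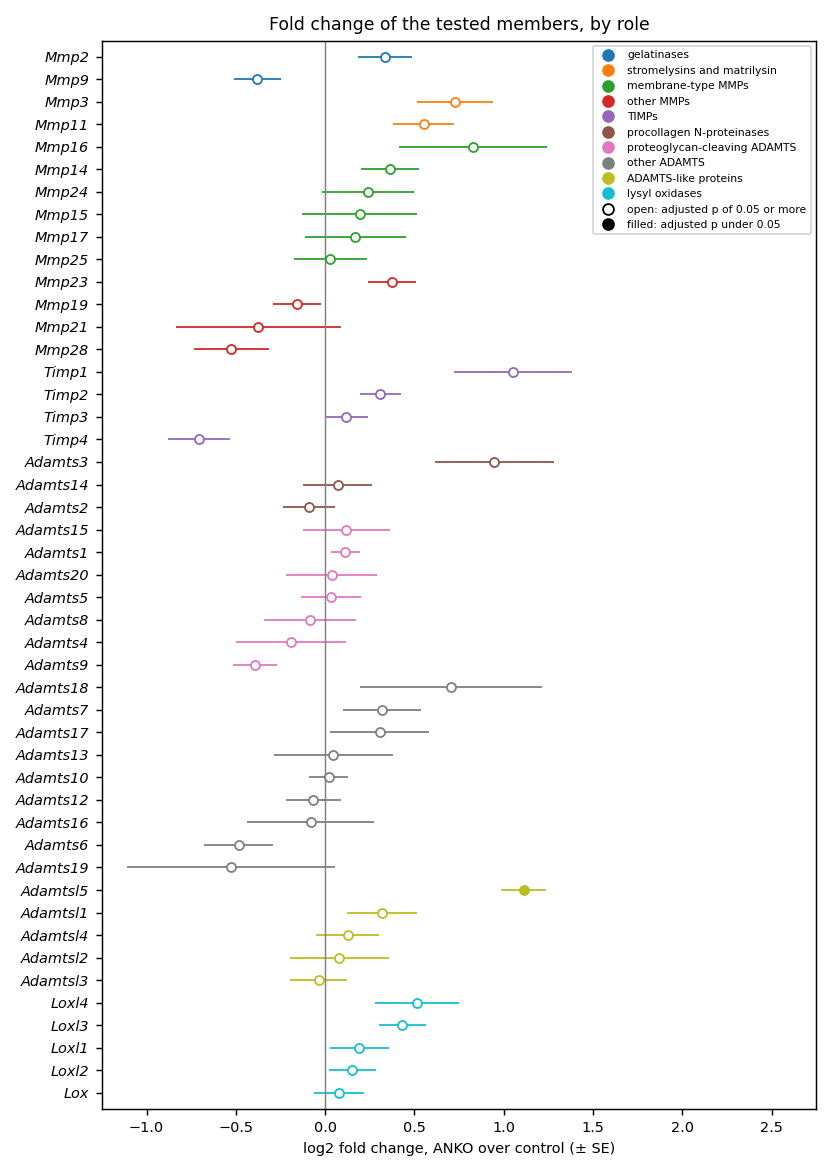
Log2 fold change of ANKO over control for each of the 47 tested genes, grouped by role, with bars of 1 standard error from the edgeR fit on 3 mice per group. Adamtsl5, at 1.11, is the filled point past the threshold, and Timp4 at -0.71 has the lowest value.

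Adamtsl5, a secreted glycoprotein that binds fibrillin microfibrils and cuts nothing itself, was the member past the threshold. Its level was 40.4, 51.8 and 39.8 CPM in ANKO 1, 2 and 3, against 19.0, 20.7 and 21.4 CPM in control 1, 2 and 3. Every ANKO library held more than every control library, and the control values lay close together. The means were 44.0 ± 6.77 CPM in ANKO and 20.4 ± 1.23 CPM in control tissue (SD, n = 3 each), a 2.16-fold difference (log2 fold change 1.11, standard error 0.126, adjusted p = 0.00837). The call held in all 16 alternative analyses, with log2 fold changes of 0.98 to 1.19 and adjusted p = 2.6e-10 to 0.0362. With the summed muscle markers as a covariate the log2 fold change was 1.13 (adjusted p = 0.0246). The gene lies on chromosome 10, 80339110 to 80348412 on the minus strand (GRCm38, GENCODE M21), and no annotated exon of another gene overlaps its exons.

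The promoter of Adamtsl5 is shown because it is the member that rose, those of Timp4 and Mmp3 because DESeq2 called them too, and that of Timp1 for comparison with Timp4, since the fold changes of these inhibitors had opposite signs. Each runs from 250 bases before to 50 bases after the RefSeq start site (GRCm38.p6) and is written 5′ to 3′ on the strand of its gene. The windows are chr10:80348399-80348698 (minus) for Adamtsl5, chr6:115252156-115252455 (minus) for Timp4, chrX:20869916-20870215 (plus) for Timp1 and chr9:7445572-7445871 (plus) for Mmp3. Capitals mark matches, on either strand, to 6 motifs: the AP-1 site TGANTCA, the TATA box TATAAA, the nuclear receptor half-site AGGTCA, the CCAAT box CCAAT, the GC box GGGCGG and the ATF4 element TGATGNAA.
Adamtsl5: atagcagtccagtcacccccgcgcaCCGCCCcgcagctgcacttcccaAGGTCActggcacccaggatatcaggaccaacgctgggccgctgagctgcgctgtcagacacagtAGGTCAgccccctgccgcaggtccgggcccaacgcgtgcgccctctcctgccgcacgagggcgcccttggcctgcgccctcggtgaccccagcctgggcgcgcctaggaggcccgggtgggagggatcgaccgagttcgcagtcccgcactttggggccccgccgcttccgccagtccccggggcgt
Timp4: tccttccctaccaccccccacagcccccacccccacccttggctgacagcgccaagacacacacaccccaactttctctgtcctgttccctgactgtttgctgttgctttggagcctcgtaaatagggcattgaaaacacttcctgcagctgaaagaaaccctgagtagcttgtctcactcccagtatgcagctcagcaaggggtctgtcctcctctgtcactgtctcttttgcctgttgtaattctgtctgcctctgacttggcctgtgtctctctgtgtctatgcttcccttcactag
Timp1: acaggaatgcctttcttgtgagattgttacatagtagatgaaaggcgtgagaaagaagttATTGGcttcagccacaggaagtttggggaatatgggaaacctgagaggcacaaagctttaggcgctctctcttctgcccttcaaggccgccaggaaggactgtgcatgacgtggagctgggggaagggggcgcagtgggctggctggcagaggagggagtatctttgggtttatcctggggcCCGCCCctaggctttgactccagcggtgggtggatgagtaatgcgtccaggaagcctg
Mmp3: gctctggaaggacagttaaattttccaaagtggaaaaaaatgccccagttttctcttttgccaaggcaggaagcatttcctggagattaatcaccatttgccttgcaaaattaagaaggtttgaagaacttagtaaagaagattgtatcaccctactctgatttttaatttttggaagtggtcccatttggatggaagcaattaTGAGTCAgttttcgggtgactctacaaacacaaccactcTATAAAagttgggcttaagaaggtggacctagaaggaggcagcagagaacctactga
The Adamtsl5 window held the letters AGGTCA at 2 places, starting at positions -202 and -137 from the start site, and 1 GC box on the other strand at -225. That RefSeq start site lies outside the GENCODE span of the gene given above, so these positions depend on the annotation. At least 1 AGGTCA stood in 16.3% of all 32851 promoters of the same length and in 4 of the 38 promoters found for 36 members. In the Mmp3 window AP-1 matched at -46 and the TATA box at -7, motifs held by 7.81% and 13.6% of all promoters and by 7 and 11 of the 38. Timp1 had a CCAAT box at -190 and a GC box at -8, both on the other strand, against 37.4% and 35.7% of all promoters and 10 and 23 of the 38. Timp4 matched none of the 6, and the ATF4 letters, present in 3.97% of all promoters and 1 of the 38, occurred in none of the 4 windows. The Adamtsl5 window was the richest of the 4 in G and C, at 72.0% against a median of 52.7% over all promoters.

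Among the other ADAMTS-like genes, none of which passed the threshold, Adamtsl4 had the highest level per exon length. It gave 69.5, 46.2 and 44.3 CPM in ANKO 1 to 3 and 50.8, 51.8 and 44.0 CPM in control 1 to 3 (log2 fold change 0.13, standard error 0.177, adjusted p = 0.845). Its groups overlapped, and ANKO 1 alone stood above the controls. Adamtsl4 binds fibrillin-1, and Adamtsl2, another fibrillin-binding member, was low, at 1.66 ± 0.285 CPM in ANKO and 1.57 ± 0.0854 CPM in control tissue. Adamtsl1 and Adamtsl3 had log2 fold changes of 0.32 and -0.04 (adjusted p = 0.580 and 0.963). Per kilobase of exon, Adamtsl5 stood at 9.32 CPM in ANKO and 4.31 CPM in control tissue, while Adamtsl4 stood at 12.7 CPM in ANKO and 11.6 CPM in control tissue.

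**Figure D2:**
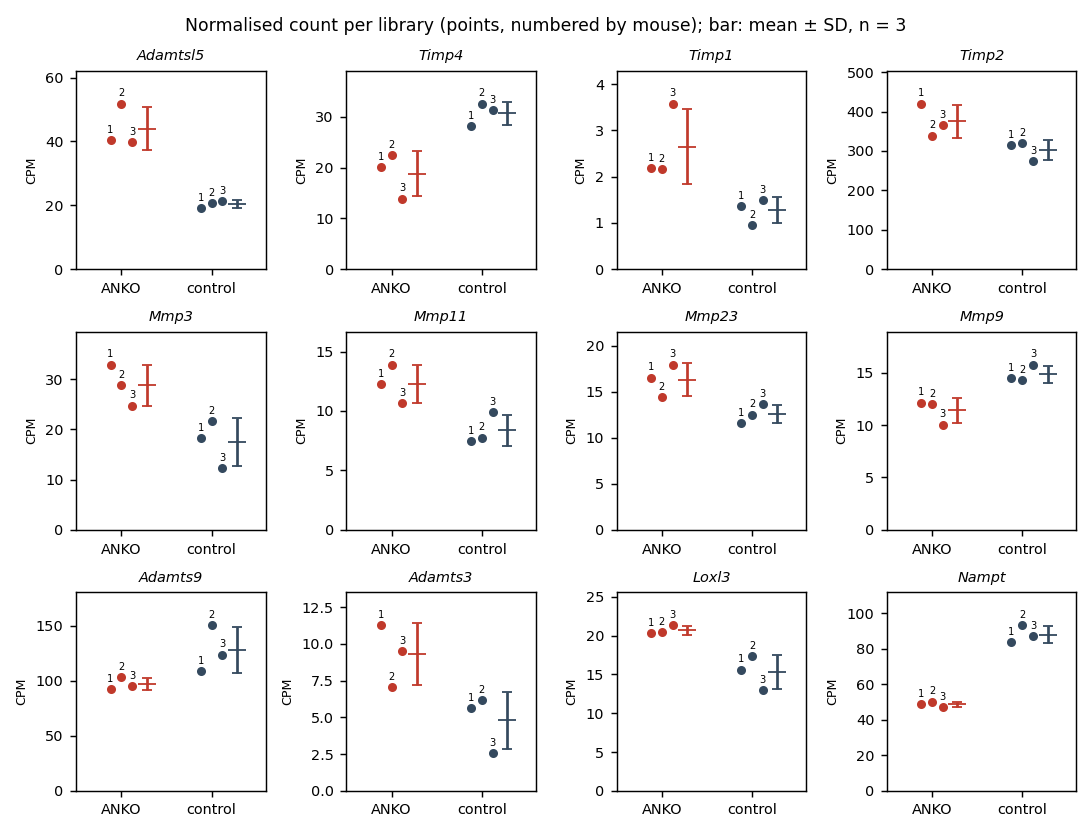
Normalised count (CPM, linear axis from 0) of 11 members and of Nampt in each library, with points numbered by mouse and bars giving the mean and SD of 3 mice. ANKO points are at the left and control points at the right of each panel. The 11 members shown have an unadjusted p under 0.05 and groups that do not overlap, so the separation follows from the choice. Over all features tested 19.4% had groups that do not overlap.

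The TIMP genes did not share a direction, and none passed the threshold. Timp4, an inhibitor known for high expression in heart and fat, had 20.1, 22.4 and 13.9 CPM in ANKO 1 to 3, against 28.2, 32.6 and 31.3 CPM in control 1 to 3. All ANKO values were below all control values, with ANKO 3 the lowest (log2 fold change -0.71, standard error 0.174, adjusted p = 0.113). Across the 16 alternatives its adjusted p ran from 0.012 to 0.262, and it was called in 2 of them, with DESeq2 and with no low-count filter (adjusted p = 0.0487). The adipocyte marker sum was also lower in every ANKO library, but its lowest value was in ANKO 1, at 0.397%, against 0.631% and 0.541% in ANKO 2 and 3. Taken singly, 4 of the 8 adipocyte markers were lower in every ANKO library, and 1 had a positive fold change. The part of the adipocyte marker sum in the Timp4 difference was not tested. Timp4 lies on chromosome 6, 115241892 to 115252205, and 90 of its 5894 exon bases overlap Syn2 on the other strand. Syn2 ranged from 26.0 to 92.2 CPM in ANKO and 11.8 to 124 CPM in control tissue and did not separate the groups.

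Timp1, the inhibitor often induced in inflamed or fibrotic tissue, was low and higher in every ANKO library. It had 2.18, 2.17 and 3.58 CPM in ANKO 1 to 3, which were 52, 50 and 77 reads, and 1.36, 0.958 and 1.49 CPM in control 1 to 3, which were 31, 19 and 29 reads. The groups did not overlap (log2 fold change 1.05, standard error 0.329, adjusted p = 0.206), and no alternative called it. Per kilobase of exon the mean level of Timp1 was 2.98 CPM in ANKO and 1.43 CPM in control tissue, and that of Timp4 was 3.19 CPM in ANKO and 5.21 CPM in control tissue. The levels of these 2 inhibitors were thus nearer to each other in ANKO than in control tissue, a description of levels for which no test of the difference was run.

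Timp2, which also takes part in the activation of pro-Mmp2 by Mmp14, was the most abundant member per exon length and made up 72.0% of the summed TIMP level. Its values were 420.0, 339 and 366 CPM in ANKO 1 to 3, against 315, 319 and 275 CPM in control 1 to 3. The groups did not overlap, with ANKO 2 close to control 2 (log2 fold change 0.31, standard error 0.113, adjusted p = 0.289). Timp3, the inhibitor that binds to matrix and also blocks several ADAM and ADAMTS proteases, averaged 233 ± 33.8 CPM in ANKO and 215 ± 16.0 CPM in control tissue (adjusted p = 0.771). Of its exon bases 21.3% overlap Syn3 on the other strand, which averaged 5.89 CPM in ANKO and 6.33 CPM in control tissue; the part of shared reads was not tested. Summed per kilobase, the 4 TIMPs stood at 142, 126 and 125 CPM in ANKO and at 111, 116 and 104 CPM in control libraries. The 22 Mmp genes summed to 185, 155 and 169 CPM per kilobase in ANKO 1 to 3 and to 143, 158 and 123 in control 1 to 3. Their ratio to the TIMPs was 1.30, 1.23 and 1.35 in ANKO libraries and 1.29, 1.36 and 1.18 in control libraries, which overlapped.

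Both stromelysins that were tested had higher values in every ANKO library, without passing the threshold. Mmp3, stromelysin 1, which cleaves proteoglycans and activates other pro-MMPs, had 32.9, 28.8 and 24.7 CPM in ANKO 1 to 3, against 18.3, 21.7 and 12.3 CPM in control 1 to 3. The lowest ANKO value lay just above the highest control value (log2 fold change 0.73, standard error 0.211, adjusted p = 0.180). Its adjusted p over the alternatives ran from 0.0295, with DESeq2, to 0.350. Mmp11, stromelysin 3, known to process collagen VI in fat, had 12.2, 13.9 and 10.7 CPM in ANKO and 7.49, 7.76 and 9.89 CPM in control libraries. Again the groups did not overlap (log2 fold change 0.55, standard error 0.170, adjusted p = 0.202). Its exons share 155 bases with Chchd10 on the other strand, and Chchd10 averaged 258 CPM in ANKO and 101 CPM in control tissue. No source used here gives the strand setting of the counting, so reads of the pair in those bases cannot be told apart.

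The gelatinases, which digest denatured collagen and basement membrane collagen, had fold changes of opposite sign. Mmp2, gelatinase A, is the second most abundant member per exon length and made up 42.1% of the summed Mmp level. Its values were 296, 199.9 and 242 CPM in ANKO 1 to 3 and 205, 209 and 171 CPM in control 1 to 3, so the groups overlapped through ANKO 2 (log2 fold change 0.34, standard error 0.153, adjusted p = 0.417; 0.20 without ANKO 1). Mmp9, gelatinase B, a product of neutrophils and macrophages among other cells, had 12.14, 11.998 and 10.04 CPM in ANKO and 14.5, 14.3 and 15.8 CPM in control libraries. All ANKO values were lower (log2 fold change -0.38, standard error 0.131, adjusted p = 0.256). Of the 10 macrophage markers 3 were called higher, none lower and all 10 were positive, and the 9 neutrophil markers overlapped, at 0.00664% to 0.0178% of ANKO and 0.00134% to 0.0114% of control libraries. The part of either cell type in the Mmp9 values was not tested.

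The 6 membrane-bound MMPs all had positive fold changes and none passed the threshold. Mmp14, the membrane protease that activates pro-Mmp2 and is needed for fat cells to expand in a collagen network, had 131, 112 and 167 CPM in ANKO 1 to 3 and 108, 120.1 and 91.5 CPM in control 1 to 3. The groups overlapped through ANKO 2 (log2 fold change 0.36, standard error 0.163, adjusted p = 0.415; 0.19 without ANKO 3). Within the ANKO libraries Mmp2, Mmp14 and the fibroblast marker sum all had their lowest value in ANKO 2, where the marker sum was 0.306%, against 0.445% and 0.4997% in ANKO 1 and 3. Among the controls Mmp2 and Mmp14 were lowest in control 3, while the marker sum was lowest in control 1. The sum was 0.269% there, against 0.340% and 0.278% in control 2 and 3. That sum includes the matrix genes Col1a1, Dcn and Lum, and Col1a1 alone had 2968, 1979 and 3540 CPM in ANKO 1 to 3. It thus reflects collagen expression as well as cell content. The part of fibroblast content in the Mmp2 and Mmp14 values was not tested. Mmp15, the most abundant of this group per exon length, had 144, 135 and 115 CPM in ANKO and 124, 157 and 64.1 CPM in control libraries. Control 3 stood far below the other controls, and the sign of its log2 fold change, 0.19, turned to -0.08 without control 3. In that library the 9 epithelial and mammary markers made up 0.0161% of the counts, against 0.0680% and 0.125% in control 1 and 2. The 4 mesothelial markers made up 0.0089%, against 0.0359% and 0.0619%. What part these cells had in the Mmp15 values was not tested. Mmp16, Mmp17, Mmp24 and the neutrophil-associated Mmp25 had low levels, between 0.861 and 5.62 CPM in group means, and log2 fold changes of 0.83, 0.17, 0.24 and 0.03. The sign of Mmp17 and Mmp25 changed in 1 and 2 of the alternatives. Mmp16 and Mmp24 kept their sign, but single libraries moved them: Mmp16 was 0.43 without ANKO 1, and Mmp24 was 0.06 without ANKO 3.

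Of the 4 other Mmp genes tested, Mmp23, a membrane-anchored protease without a haemopexin domain, was the one with non-overlapping groups. It had 16.5, 14.4 and 17.9 CPM in ANKO 1 to 3, against 11.6, 12.5 and 13.6 CPM in control 1 to 3 (log2 fold change 0.37, standard error 0.134, adjusted p = 0.274). Mmp28, epilysin, averaged 23.5 ± 4.57 CPM in ANKO and 33.8 ± 8.35 CPM in control tissue and its groups overlapped (adjusted p = 0.355). Mmp19, the most abundant of these per exon length, had 26.7, 38.8 and 33.8 CPM in ANKO and 36.8, 36.5 and 37.3 CPM in control libraries (log2 fold change -0.16, standard error 0.135, adjusted p = 0.722). The ANKO values lay on both sides of the control values. Exon overlaps of Mmp19 with Gm47093 and Tmem198b on the other strand add up to 1001 bases, against 3533 exon bases. The share of each gene in that sum was not separated. Tmem198b averaged 14.5 CPM in ANKO and 12.4 CPM in control tissue. Mmp21 averaged 1.02 CPM in ANKO and 1.33 CPM in control tissue.

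The 8 members that did not pass the filter were all Mmp genes of 1 cluster. Of the 22 Mmp members, 9 lie on chromosome 9 between 7272514 and 7699585 (GRCm38), a stretch of 427 kb, and Mmp3 was the 1 of these 9 that could be tested. By contrast all 13 Mmp genes outside the cluster passed. Mmp1a, Mmp1b and the enamel protease Mmp20 had no read in any library. At a 95% confidence level a count of 0 still allows an expected count of up to 3 reads per library. Mmp8, the neutrophil collagenase, had 2, 6 and 6 reads in ANKO 1 to 3 and 0, 4 and 6 reads in control 1 to 3, and Mmp7, matrilysin, had 0, 2 and 0 reads in ANKO and 0, 6 and 4 reads in control libraries. Mmp10, stromelysin 2, had 10, 7 and 6 reads in ANKO and 2, 7 and 1 reads in control libraries. Mmp27 had 12, 10 and 12 reads in ANKO and 6, 2 and 2 reads in control libraries, so its groups did not overlap, at a depth below the filter. Mmp13, the main collagenase of rodents, had 2, 4 and 22 reads in ANKO 1 to 3 and 0, 3 and 0 reads in control 1 to 3, with most of them in ANKO 3. The macrophage elastase Mmp12 lies in the same cluster and is not counted among the members. It had 8.87, 17.5 and 33.5 CPM in ANKO 1 to 3, against 1.31, 0.857 and 0.721 CPM in control 1 to 3, and its highest value was in ANKO 3, as was that of Mmp13.

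**Figure D3:**
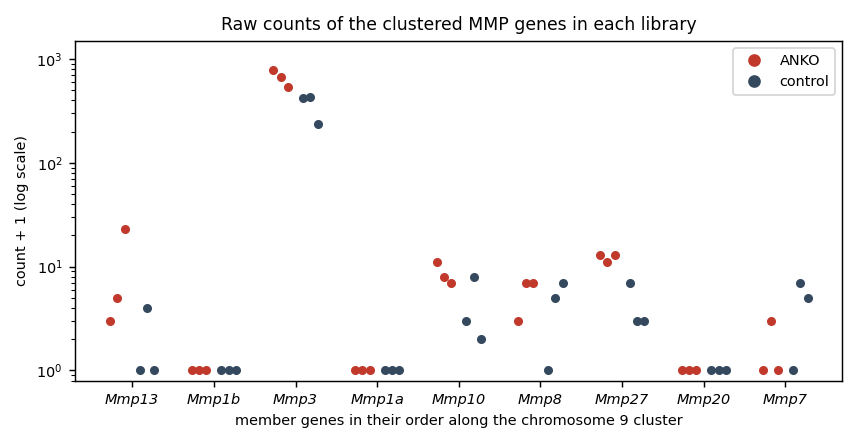
Raw counts plus 1 (log axis) of the 9 member genes of the chromosome 9 Mmp cluster in their order along the chromosome, with the 3 ANKO libraries left and the 3 control libraries right at each gene. Mmp3 has 532 to 783 reads in ANKO and 238 to 431 reads in control libraries, and no other gene exceeds 22 reads.

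The ADAMTS proteases summed to 83.9, 74.4 and 86.0 CPM per kilobase in ANKO 1 to 3 and to 80.7, 88.8 and 78.3 in control 1 to 3, and all 19 were tested without a call. Among the procollagen N-proteinases, which remove the N-terminal propeptide of fibrillar procollagens, Adamts3 had 11.3, 7.06 and 9.53 CPM in ANKO 1 to 3, against 5.65, 6.20 and 2.58 CPM in control 1 to 3. The groups did not overlap, and control 3 was the lowest (log2 fold change 0.95, standard error 0.333, adjusted p = 0.272). Adamts2, the most abundant ADAMTS gene per exon length, had 143, 104 and 136 CPM in ANKO and 131, 157 and 120.4 CPM in control libraries (log2 fold change -0.09, standard error 0.146, adjusted p = 0.867). Adamts14 averaged 17.2 ± 4.59 CPM in ANKO and 16.4 ± 1.25 CPM in control tissue.

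In the group that cuts versican, aggrecan and related proteoglycans, Adamts9 had lower values in every ANKO library. They were 92.5, 103 and 95.2 CPM in ANKO 1 to 3, against 109, 150.1 and 124 CPM in control 1 to 3 (log2 fold change -0.39, standard error 0.123, adjusted p = 0.204). Exon overlaps of Adamts9 with A730049H05Rik and Gm15737 on the other strand add up to 1805 bases, against 15048 exon bases. These antisense genes had group means of 5.13 to 8.18 CPM. Adamts5, the main aggrecanase of mouse cartilage and the most abundant of the group per exon length, had 106, 125 and 139 CPM in ANKO and 151, 101 and 109 CPM in control libraries (log2 fold change 0.03, standard error 0.169, adjusted p = 0.966), which overlapped. Adamts1, an early response protease of vessels and ovary, had higher values in all ANKO libraries by a small margin, 43.4 to 48.7 CPM against 42.3 to 42.4 CPM in control libraries (log2 fold change 0.11, adjusted p = 0.648). Adamts4, Adamts8, Adamts15 and Adamts20 overlapped, with log2 fold changes of -0.19 to 0.12 whose sign changed in 1 or 2 of the alternatives.

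Of the 9 remaining ADAMTS genes, Adamts6 had the smallest p. This relative of the fibrillin-associated Adamts10 had 11.6, 10.2 and 16.2 CPM in ANKO 1 to 3 and 16.5, 16.1 and 20.5 CPM in control 1 to 3, and ANKO 3 overlapped the controls (log2 fold change -0.48, standard error 0.193, adjusted p = 0.338). Adamts10 itself, the most abundant of these per exon length by the mean over all libraries but above Adamts12 in only 4 of 6, had 111, 85.3 and 95.8 CPM in ANKO and 96.5, 91.1 and 101 CPM in control libraries, which overlapped (log2 fold change 0.02, standard error 0.107, adjusted p = 0.969). Adamts7 and Adamts12, which cleave cartilage oligomeric matrix protein, had log2 fold changes of 0.32 and -0.07 (adjusted p = 0.626 and 0.919). Adamts13, the protease of von Willebrand factor, averaged 1.27 CPM in ANKO and 1.23 CPM in control tissue. Adamts16, Adamts17, Adamts18 and Adamts19 varied more between mice of 1 group than between groups. Adamts18 shows this, with 2.35, 3.08 and 9.01 CPM in ANKO 1 to 3 and 3.37, 3.18 and 2.27 CPM in control 1 to 3.

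The 5 lysyl oxidase genes had positive fold changes and none passed the threshold. Loxl3, which oxidises lysines in collagen and fibronectin, had 20.3, 20.5 and 21.3 CPM in ANKO 1 to 3, against 15.6, 17.4 and 13.0 CPM in control 1 to 3. The groups did not overlap, and the ANKO values lay close together (log2 fold change 0.43, standard error 0.131, adjusted p = 0.195). Of its exon bases 11.6% overlap Htra2 on the other strand, which averaged 20.1 CPM in both groups. Loxl1, needed for elastic fibre upkeep, made up 67.2% of the summed lysyl oxidase level per kilobase. It had 190.4, 142 and 172 CPM in ANKO and 139, 180.3 and 122 CPM in control libraries, with overlapping groups (log2 fold change 0.19, standard error 0.164, adjusted p = 0.718). Lox, the founding member, averaged 52.9 ± 7.95 CPM in ANKO and 50.2 ± 6.98 CPM in control tissue (log2 fold change 0.08, adjusted p = 0.889). Without ANKO 2 or control 1 the sign of Lox turned, to -0.01 and -0.02. Loxl2, which also acts on basement membrane collagen IV, and Loxl4 had log2 fold changes of 0.15 and 0.51 (adjusted p = 0.722 and 0.418).

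Levels spanned a wide range. Timp2 led at 96.3 CPM per kilobase in ANKO and 77.7 in control tissue, followed by Mmp2 at 73.0 in ANKO and 57.9 in control tissue. Loxl1 stood at 51.0 in ANKO and 44.7 in control tissue, and Timp3 at 28.6 in ANKO and 26.3 in control tissue. This order of the first 4 held within each of the 6 libraries. Mmp15 and Mmp14 came next, with Mmp15 above Mmp14 in 4 of 6 libraries. Over the 6 libraries the ranges of all neighbouring tested genes in this order overlapped, except those of Loxl1 and Timp3. By the mean over all 6 libraries Mmp16 was the lowest tested member, at 0.177 CPM per kilobase in ANKO and 0.0994 in control tissue, although Adamts19, at 0.128 in ANKO and 0.184 in control tissue, was lower in ANKO. Between mice of 1 group the highest value exceeded the lowest by a median of 1.38-fold in ANKO and 1.32-fold in control tissue. The spread exceeded 2-fold for 6 members in ANKO (Mmp16, Adamts4, Adamts16, Adamts17, Adamts18 and Adamts19) and for 4 in control tissue (Mmp15, Mmp21, Adamts3 and Adamts19).

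**Figure D4:**
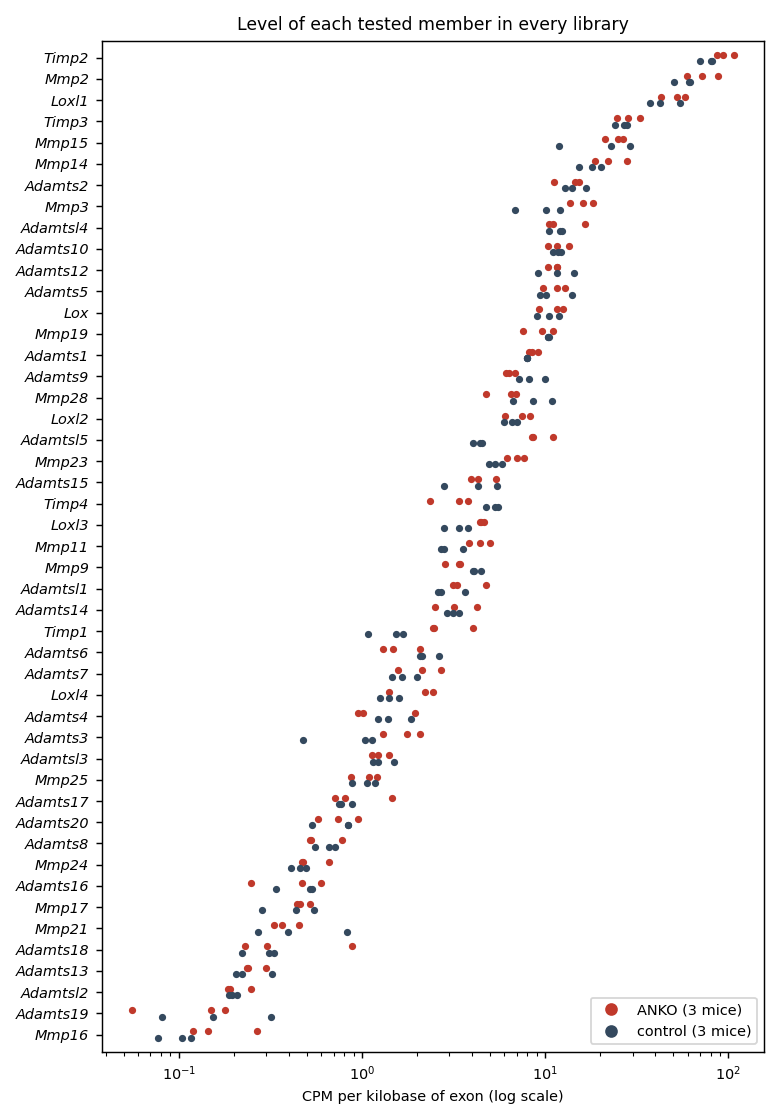
Level of each tested member in CPM per kilobase of exon (log axis), ordered by its mean, with the 3 ANKO libraries on the upper row and the 3 control libraries on the lower row of each gene. Timp2, Mmp2 and Loxl1 lead, and the points of the groups stand apart for Adamtsl5 while they overlap for most genes.

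The substrates and partners of these enzymes were mostly not called either. Of 18 basement membrane genes 2 fell, or 11.1%, and none rose, against 1.10% and 0.488% of all features. At an unadjusted p under 0.05 in edgeR, 5 were lower and 0 higher, against 6.90% and 6.03% of all features. Nid2, nidogen 2, a linker of laminin and collagen IV, had 50.9, 51.6 and 46.1 CPM in ANKO 1 to 3, against 103, 68.1 and 92.6 CPM in control 1 to 3 (log2 fold change -0.83, standard error 0.148, adjusted p = 0.0415). Lamb1, the laminin beta 1 chain, had 214, 200.4 and 244 CPM in ANKO and 298, 372 and 386 CPM in control libraries (log2 fold change -0.68, standard error 0.128, adjusted p = 0.0476). In both genes all ANKO values lay below all control values, and the median of the list was -0.02. Neither call held throughout: Nid2 lost it when any library but control 2 was left out, and Lamb1 when any library but control 1 was left out, with adjusted p of up to 0.173 and 0.155. Over the 16 alternatives Nid2 was called in 7 and Lamb1 in 6, and with the muscle covariate neither was (Nid2 -0.77, adjusted p = 0.0890; Lamb1 -0.72, adjusted p = 0.0799), with fold changes close to those without it. The sum of the 7 endothelial markers was also lower in every ANKO library, at 0.0583% to 0.0636% of ANKO and 0.0672% to 0.0783% of control libraries. Taken singly, only 3 of the 7 were lower in every ANKO library. The adipocyte marker sum was lower in every ANKO library too, as were 4 of its 8 markers taken singly. The part of either sum in the Nid2 and Lamb1 values was not tested. The 10 fibrillar collagens tested were all positive, with a median log2 fold change of 0.39 and none called. The smallest p there was that of Col27a1, at 0.43 (adjusted p = 0.153).

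None of the 17 elastic fibre and microfibril genes, which include the fibrillins bound by several ADAMTS-like proteins, was called. Their median was 0.28, 13 were positive, and Fbln1, fibulin 1, had the smallest p, with 53.6, 48.6 and 34.0 CPM in ANKO 1 to 3 and 21.3, 28.2 and 19.8 CPM in control 1 to 3 (log2 fold change 0.98, adjusted p = 0.0711). Of 9 proteoglycans tested, 7 were positive with a median of 0.39 and none called, and the smallest p was that of decorin, Dcn (0.64, adjusted p = 0.0639). Among 20 genes of collagen processing none was called, with a median of 0.14. Pcolce, the enhancer of procollagen C-proteinase, had the smallest p there (0.33, adjusted p = 0.110).

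The plasminogen system, which activates several pro-MMPs, had none of 6 called and a median of 0.08, and the protease inhibitor Serpine2 had the smallest p (0.81, adjusted p = 0.205). Of 10 other MMP regulators none was called, the median was -0.02, and the smallest p was that of the proprotein convertase Pcsk6 (-0.55, adjusted p = 0.114). Among 10 ADAM proteases the median was 0.10 with none called. Adam8, a protease of leukocytes, had the smallest p there, with 23.6, 31.5 and 43.8 CPM in ANKO 1 to 3 and 17.3, 12.2 and 15.7 CPM in control 1 to 3 (1.13, adjusted p = 0.0799). The 12 genes of TGF-beta signalling had a median of 0.19, none called, and the smallest p for the ligand Tgfb2 (0.80, adjusted p = 0.102). At an unadjusted p under 0.05 these 8 lists without a call held 1 to 5 genes each in edgeR. Higher were 4 of 10 fibrillar collagens, 4 of 17 elastic fibre genes, 4 of 9 proteoglycans and 3 of 20 collagen processing genes. Also higher were 2 of 6 plasminogen genes, 4 of 10 ADAM proteases, 4 of 12 TGF-beta genes and 0 of 10 other MMP regulators. Each list held 1 lower gene, except fibrillar collagens and TGF-beta genes with 0. Over all features 6.03% were higher and 6.90% lower. DESeq2, without the low-count filter, called 0 to 2 genes in each list, and limma-voom none. Without ANKO 1, Adam8 passed the threshold (adjusted p = 0.0396), as did Fbln1 without ANKO 3 (adjusted p = 0.0499).

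**Figure D5:**
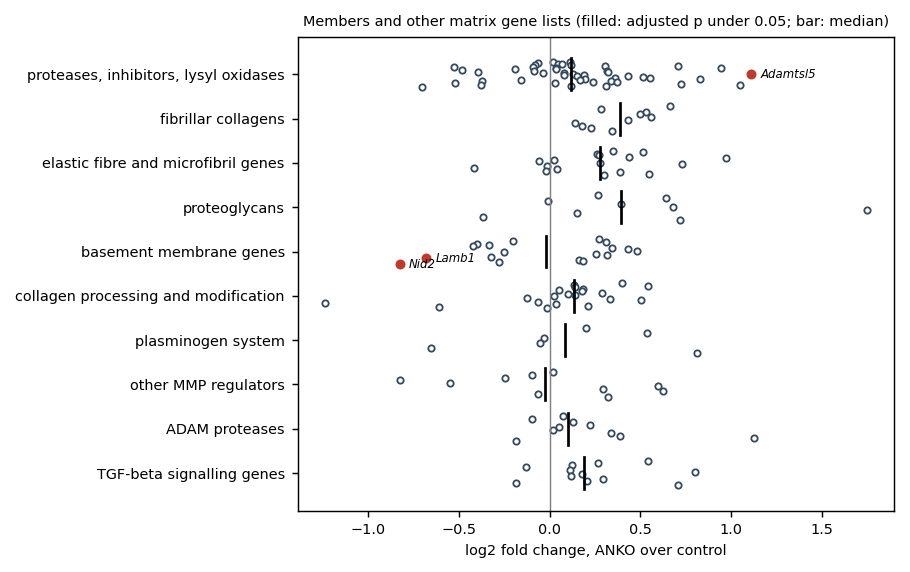
Log2 fold change of ANKO over control of every tested gene in the set and in 9 other matrix lists, with a black bar at each median. The filled points past the threshold are Adamtsl5, at 1.11, and the basement membrane genes Lamb1 and Nid2, at -0.68 and -0.83.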

How the data were processed

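The authors deposited raw read counts per gene symbol, 1 column per mouse, not normalised. The submitters' processing notes name STAR 2.0.4b, Subread, featureCounts 1.45 and build GRCm38; for the annotation release and strand setting, nothing is stated in the labels. Groups came from the sample titles. Of 40757 lines, 329 exact repeats were dropped. Counts were tested with edgeR 4.0.16 (R 4.3.3): filterByExpr (minimum count 10, total 15) left 19272 features, followed by TMM scaling, a robust quasi-likelihood F test of ANKO against control and Benjamini-Hochberg adjustment at 0.05. Standard errors were the size of the log2 fold change over the root of its F statistic, with a median of 0.186. CPM per kilobase used the union of GENCODE M21 exons. Alternatives were DESeq2 1.42.0 (own size factors, no low-count filter but its own independent filtering), limma 3.58.1 (voom), other scalings and filters, a replicate block, a muscle covariate and each library left out; those of Nampt and of the genes from other lists were added after seeing the data. The test was checked on simulated counts, where the share of false calls was above the nominal level in most runs. This limits calls close to the threshold, such as those of Nid2 and Lamb1.

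The members, the 9 matrix lists, the 13 marker lists and the naming rule were chosen with earlier results of these data known. Full values were given to called members, to members with an unadjusted p under 0.05 and separated groups, and, per role, to those with the smallest p and the highest level per kilobase; from each matrix list came up to 3 called genes, or the gene with the smallest p. One listed symbol, Ctgf, was not matched. No label says whether the mice were litter mates. Each p-value sets the difference between the groups against the variation among these mice within a group. Of the marker lists not named with a result, T cells took 0.0167% to 0.0209% of ANKO and 0.0192% to 0.0272% of control libraries, B cells 0.0241% to 0.0454% of ANKO and 0.0307% to 0.0391% of control, mural cells 0.0859% to 0.114% of ANKO and 0.0818% to 0.0938% of control, and Schwann cells 0.0239% to 0.0349% of ANKO and 0.0237% to 0.0270% of control.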

Additional observations from a re-analysis of the deposited data

How the results depend on the processing

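Over 16 alternatives, Adamtsl5 was called higher in each. With DESeq2 2 members were higher and 1 lower, and with no low-count filter 1 was lower; the cause was not tested. Of 752 member values under the alternatives 749 kept their side of the threshold, and 3 were newly called (Timp4 with DESeq2 and with no filter, Mmp3 with DESeq2). The sign of 22 uncalled members changed in at least 1 alternative. Single libraries also moved uncalled values: Adamts9 was -0.26 without control 2, Mmp28 -0.32 without control 3, Adamts7 0.12 without ANKO 3 and Adamtsl1 0.13 without ANKO 1.

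Counts over all features, 94 higher and 212 lower, moved more. They were 371 and 480 with DESeq2, which was also run without the low-count filter, so tool and filter changed together; 167 higher with no low-count filter, and 49 higher and 112 lower with the muscle covariate. Limma-voom gave 62 higher. Leaving out 1 library gave 20 to 107 higher and 55 to 221 lower, with both lowest counts without ANKO 3, while the members called stayed at 1 higher and 0 lower. Leaving out any library but ANKO 1 moved the count of higher features by over 1.5 times, and any but control 1 that of lower features. Same-numbered mice did not deviate together (correlations of deviations 0.0746, -0.0333 and -0.0435). These values cannot tell whether the mice were paired by litter, cage or handling, which the labels do not state. With the replicate block 62 features were higher and 145 lower, and 1 member was higher and 0 lower. The median log2 fold change of all features lay between -0.00436 and 0.0121 over the settings. Nid2 and Lamb1 were not called in 9 and 10 alternatives. Members with a mean under 5 CPM had standard errors above the median, which limits what this depth can show.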
